A study of Mus musculus with 4 samples.

Results

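The urokinase receptor, the plasminogen activators, their inhibitors and the receptors that take up their complexes were followed through the leukocytes of the allergen-challenged mouse lung. The members were the gene rows with the symbols Plaur, Plau, Plat, Serpine2, Serpinb2, Plgrkt, Lrp1 and Mrc2, which are 8 of the 32285 genes in the count tables. Mice of strain C57B6/J, either wild type or lacking Plaur (Plaur–/–), had been sensitized with LPS and ovalbumin on days 0 and 7 and exposed to aerosolized ovalbumin on day 14. The design lists 8 mice of each genotype but does not say how many of them gave cells to a library. CD45.2+ lung leukocytes were sorted and sequenced as 1 RNA library per genotype, so no test between genotypes was possible. All intervals given are at the 95% level and hold counting error alone, not the spread between mice. The labels call the cells both circulating leukocytes and a total lung lysate, and the sources used here do not say which part of Plaur the knockout removes.

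Urokinase (uPA) and tissue-type plasminogen activator are serine proteases that cut plasminogen into plasmin, the enzyme that dissolves fibrin and loosens matrix. Urokinase acts while held at the cell surface by its receptor uPAR, a protein with a lipid anchor that also works with integrins in leukocyte adhesion and migration. Serpins block the activators by forming complexes with them, and endocytic receptors of the low density lipoprotein receptor family remove these complexes from the surface.

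The WT-labelled library held 9024 barcodes with 42913843 gene UMIs (unique molecular identifiers, each standing for 1 captured RNA molecule), of which 8684 cells entered the comparisons (median 3209 UMIs). The KO-labelled library held 10102 barcodes with 47442215 gene UMIs, of which 9584 entered (median 2777.5 UMIs). The libraries shared 16 barcode sequences. Cells were grouped into 17 classes with at least 50 cells in each library. Each class name below stands for cells like that type by its marker genes (neutrophil-like, T cell-like and so on), not for an independent identification. No barcode carried at least 3 of 7 eosinophil markers, and how often an eosinophil would pass that rule was not tested. A further 23 WT-labelled and 19 KO-labelled barcodes carried at least 3 of 9 fibroblast or smooth muscle markers. Those barcodes are described apart from the leukocytes, by a rule set after the data were seen.

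Plaur RNA was counted in both libraries, with 21570 UMIs in WT-labelled and 20070 UMIs in KO-labelled kept cells. The libraries are therefore named by their labels, and every direction between them rests on those labels. The sequencing reads the 3′ end of transcripts, which can lie outside the removed part, so the Plaur level checks nothing about the genotype. Over all kept cells, a sum in which fewer cells of a type and less RNA per cell cannot be told apart, 0 of the 8 genes differed 2-fold or more. Among the 15928 genes with at least 20 UMIs over both libraries, 2.65% were at least 2-fold higher and 3.17% at least 2-fold lower in the KO-labelled library. The median log2 ratio, with the KO-labelled library in the numerator here and below, was -0.41 over the 8 genes and -0.10 over all genes measured.

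The genes differed in how widely leukocytes made their RNA. Plgrkt was counted in each of the 17 classes and Lrp1 mainly in mononuclear phagocytes. Plaur was highest in neutrophils and classical monocytes, Plau was found in interstitial macrophages and cDC2, and Serpinb2 in monocytes and some neutrophils. Plat, Serpine2 and Mrc2 were rare in every leukocyte class.

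**Figure D1:**
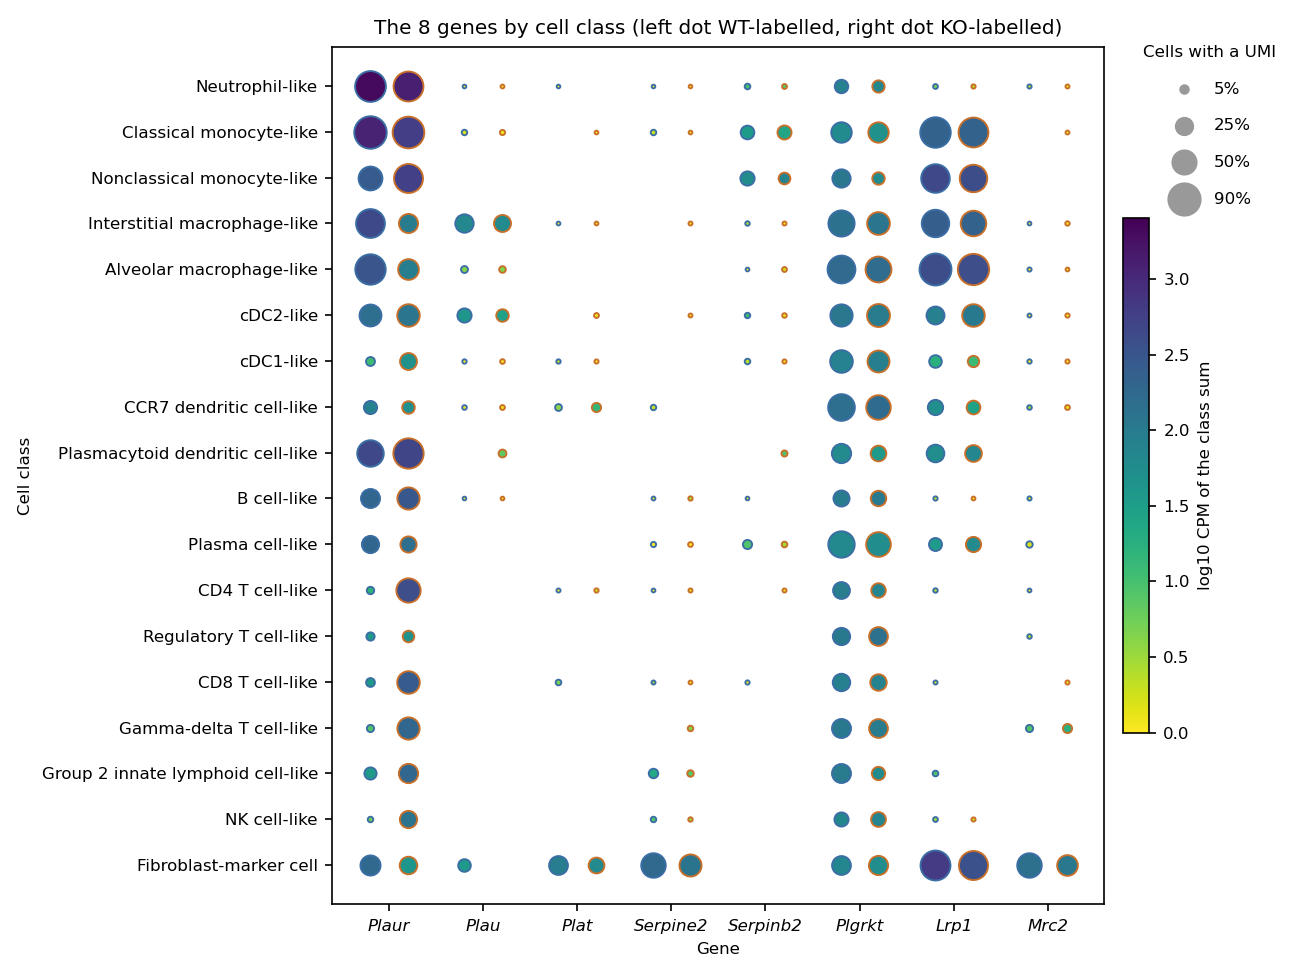
Levels of the 8 genes by cell class, with the WT-labelled library as the left and the KO-labelled library as the right dot of each pair. Dot area rises with the percentage of cells that have a UMI, colour gives log10 CPM of the class sum, and no dot means 0 UMIs. Plgrkt has dots in every class, whereas Plat, Serpine2 and Mrc2 have large dots only in the row of fibroblast-marker cells.

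Promoter sequences were available from RefSeq (build GRCm38.p6) for 5 of the 8 genes. The 250 bases before the listed start are shown for a gene of myeloid cells (Plaur), a gene of monocytes and some neutrophils (Serpinb2), a gene of mononuclear phagocytes (Lrp1) and a gene counted in every class (Plgrkt), so that the letters can be read beside their expression. For Plaur, Serpinb2 and Plgrkt this start lies inside the annotated gene, and for Serpinb2 it is the first of 2 listed. Capitals mark matches, on either strand, to TGANTCA (bound by AP-1 factors), GAGGAA (PU.1, a factor of myeloid and B cells), GGGCGG (Sp1) and TATAAA (the letters of a TATA box).
Plaur, chr7:24462233-24462482, plus strand: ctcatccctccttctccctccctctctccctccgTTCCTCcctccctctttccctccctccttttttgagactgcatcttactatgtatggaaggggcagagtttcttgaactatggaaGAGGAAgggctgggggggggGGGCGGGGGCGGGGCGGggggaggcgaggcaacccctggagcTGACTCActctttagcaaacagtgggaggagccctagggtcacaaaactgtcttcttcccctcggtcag
Serpinb2, chr1:107511173-107511422, plus strand: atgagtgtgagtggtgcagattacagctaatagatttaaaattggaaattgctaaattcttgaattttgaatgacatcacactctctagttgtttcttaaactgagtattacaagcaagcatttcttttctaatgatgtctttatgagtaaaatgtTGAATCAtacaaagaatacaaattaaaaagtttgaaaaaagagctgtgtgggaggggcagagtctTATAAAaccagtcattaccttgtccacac
Lrp1, chr10:127621149-127621398, minus strand: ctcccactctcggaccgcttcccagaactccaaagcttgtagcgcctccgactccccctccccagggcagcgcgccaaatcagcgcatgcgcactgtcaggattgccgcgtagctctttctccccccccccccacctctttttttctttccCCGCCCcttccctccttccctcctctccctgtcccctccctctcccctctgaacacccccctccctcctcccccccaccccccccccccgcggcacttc
Plgrkt, chr19:29361872-29362121, minus strand: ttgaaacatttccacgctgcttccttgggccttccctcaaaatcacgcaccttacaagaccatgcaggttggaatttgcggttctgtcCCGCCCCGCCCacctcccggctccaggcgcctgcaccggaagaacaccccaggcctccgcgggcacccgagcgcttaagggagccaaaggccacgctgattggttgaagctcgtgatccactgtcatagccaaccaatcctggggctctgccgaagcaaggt

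The Plaur window held 1 AP-1 match, which began 69 bases before the start, 2 PU.1 matches and 3 Sp1 matches, a pair of which share a base. The Serpinb2 window held 1 AP-1 match at 94 bases and 1 TATA box at 29 bases before the start. The Plgrkt window held 2 Sp1 matches, which share a base, and the Lrp1 window 1 Sp1 match. Of 32851 windows of the same length in the table, 6.75% held the AP-1, 23.2% the PU.1, 32.7% the Sp1 and 12.4% the TATA box letters. A match is a stretch of letters and no evidence that a factor binds there, and the absence of a match says nothing about the factor.

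Plaur (chromosome 7 at 24460937 to 24475970) encodes uPAR. In neutrophils, the class with the most, it was at 2067 CPM in the WT-labelled library (CPM, the gene's UMIs per 1000000 UMIs of the class, interval 2029 to 2106). The KO-labelled value was 1254 CPM (interval 1228 to 1279). Neutrophils held 51.4% of all WT-labelled and 46.8% of all KO-labelled Plaur UMIs. Classical monocytes came next with 1184 and 597 CPM, and held 13.8% and 31.7% of the UMIs. In the WT-labelled library, plasmacytoid dendritic cells (464 CPM) and interstitial macrophages (447 CPM) followed with overlapping intervals, and then alveolar macrophages at 316 CPM. The plasmacytoid value came from 251 UMIs in 75 cells, of which 1 cell held 46, and neutrophil RNA in that class was not examined. Nonclassical monocytes, at 276 CPM, did not differ from alveolar macrophages beyond their intervals. B cells and plasma cells were both at 198 CPM and cDC2 at 154 CPM. At the lower end stood CCR7 dendritic cells at 81.7 CPM, CD8 T cells at 37.8 CPM, CD4 T cells at 16.1 CPM, cDC1 at 11.5 CPM and NK cells at 5.06 CPM. The value of CCR7 dendritic cells came from 86 UMIs in 19 of 132 cells, of which 1 cell held 30.

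The order was not the same in the KO-labelled library. Plaur RNA was lower there in macrophages and higher in most T, NK and innate lymphoid classes. CD4 T cells were at 389 CPM (interval 360 to 420), above alveolar macrophages at 90.5 CPM and interstitial macrophages at 95.3 CPM. NK cells were at 127 CPM and CD8 T cells at 268 CPM. Nonclassical monocytes were at 575 CPM and had Plaur in 18.7% of WT-labelled and 47.0% of KO-labelled cells after the thinning described next. The lowest class was that of regulatory T cells, at 47.4 CPM against 37.5 CPM in the WT-labelled library, where the interval of the log2 ratio ran from -0.68 to 1.38.

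The share of cells with a Plaur UMI was compared after each cell had been thinned to 1000 UMIs, and 191 WT-labelled and 290 KO-labelled kept cells with fewer were left out. In neutrophils the share was 72.8% (interval 70.9% to 74.7%) in the WT-labelled and 62.7% (interval 61.0% to 64.4%) in the KO-labelled library, or 83.1% and 78.2% in unthinned cells. Classical monocytes had 57.0% and 40.9%, and interstitial macrophages 28.8% and 7.43%. In CD4 T cells the share was 1.10% (interval 0.443% to 2.25%) and 29.1% (interval 25.5% to 32.9%), or 3.71% and 51.3% unthinned. In droplets, free RNA can give UMIs to cells that do not express a gene. The lymphoid class of at least 150 cells with the lowest share was that of NK cells, with 0.316% of WT-labelled cells (median 2827 UMIs) and 11.9% of KO-labelled cells (median 2375.5 UMIs). In the KO-labelled library NK cells do not mark a background, because regulatory T cells, a smaller class, had Plaur in 2.17% (interval 0.451% to 6.22%, median 2539 UMIs). The KO-labelled shares of interstitial macrophages (interval 5.56% to 9.68%) and alveolar macrophages (8.80%, interval 6.66% to 11.4%) lay between those classes, and that of alveolar macrophages lay above the interval of regulatory T cells.

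Clusters within a class differed as much as some classes did. Among neutrophils, the cluster led by F3, Egln3 and Acod1 (cluster 7) had Plaur in 77.9% of WT-labelled and 53.9% of KO-labelled cells, and a log2 ratio of -1.25 (interval -1.34 to -1.16). In cluster 10, led by Slc40a1 and Il1r2, the shares were 61.1% and 64.3% with overlapping intervals, and the log2 ratio was -0.22 (interval -0.32 to -0.13). The difference of these ratios was not tested. Among classical monocytes, cluster 23 had Plaur in 63.9% and 44.5% of cells and cluster 4 in 33.3% and 26.6%. Interstitial macrophages of the Gpnmb and Trem2 cluster 9 had Plaur in 36.3% and 8.90% of cells, and those of the Ccl8, Ccl12 and C1qa cluster 11 in 12.5% and 6.30%.

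In T cells the KO-labelled Plaur RNA was most frequent in clusters led by genes of resting T cells. Cluster 16 of the CD4 T cells, led by Igfbp4, Lef1 and Tcf7, had a Plaur UMI in 1.95% of WT-labelled and 41.3% of KO-labelled cells. Its levels were 20.1 and 570.1 CPM. Cluster 17, led by Tnfsf8, Tnfsf11 and Cd40lg, had 0.304% and 16.5%. Cluster 13 of the CD8 T cells, which carried Dapl1 and Lef1, had 3.23% and 28.0%, and cluster 8, led by Ifng, Lag3 and Pdcd1, 1.13% and 7.74%. In the KO-labelled library the intervals of clusters 16 and 17 did not overlap, nor did those of clusters 13 and 8. Among B cells the Fcer2a and Cr2 cluster 0 had the most, with 20.1% and 32.5% of cells against 8.26% and 13.9% in the Vpreb3 cluster 5.

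**Figure D2:**
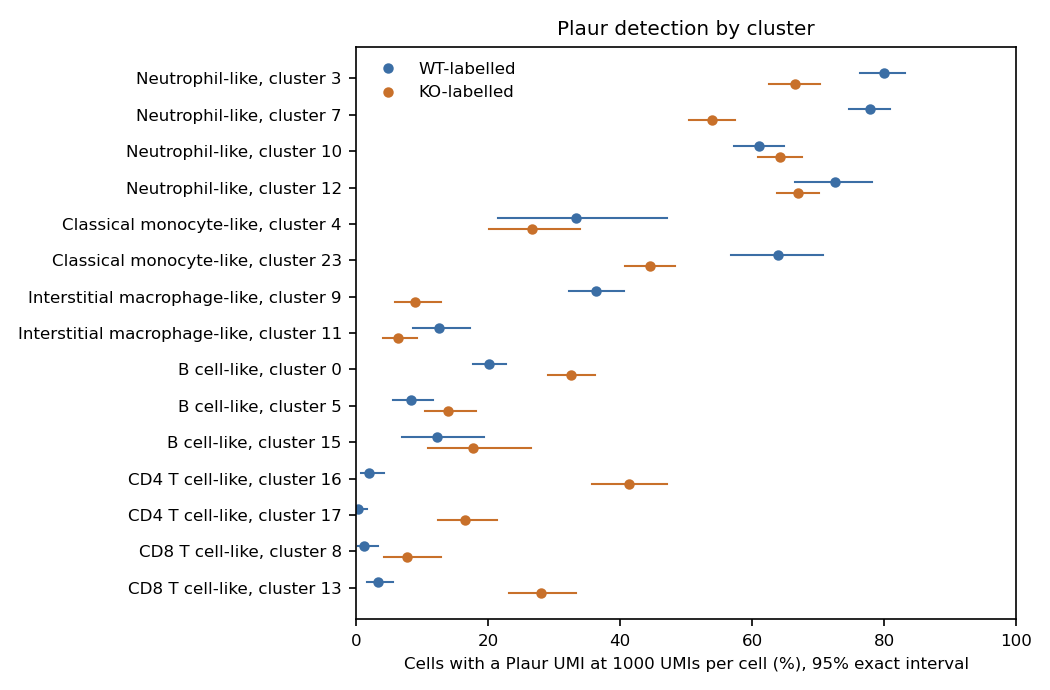
Percentage of cells with a Plaur UMI after thinning to 1000 UMIs, by cluster, for classes made of several clusters, in the WT-labelled and the KO-labelled library. Lines are 95% exact intervals. The 4 T cell clusters lie at 3.23% or less in the WT-labelled library and between 7.74% and 41.3% in the KO-labelled library.

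Neutrophil RNA was examined beside these values through 9 neutrophil markers, among them S100a8, S100a9, Csf3r and Cxcr2. Their summed level was 132 CPM in WT-labelled and 677 CPM in KO-labelled CD4 T cells, and 101451 and 125712 CPM in neutrophils, and none of the 9 was at 0. In CD4 T cells without a UMI of any of the 9, Plaur was at 8.03 CPM in 482 WT-labelled cells and at 398 CPM in 319 KO-labelled cells. In the same kind of CD8 T cells it was at 16.5 and 263 CPM, in NK cells at 5.42 and 118 CPM, and in B cells at 209 and 340 CPM. The markers did not move one way. They were lower in KO-labelled CD8 T cells (874 and 359 CPM) and regulatory T cells (729 and 257 CPM). CD8 T cells with Plaur had 9456 and 556 CPM of the markers and those without Plaur 243 and 193 CPM. The markers were higher in KO-labelled group 2 innate lymphoid cells (413 and 2927 CPM), where cells without a marker UMI had 32.9 and 229.7 CPM of Plaur. They were higher too in KO-labelled cDC1 (312 and 648 CPM), where cells with Plaur had 2787 and 2298 CPM of the markers and cells without Plaur 92.1 and 131 CPM. Plaur in cDC1 without a marker UMI was at 3.88 and 44.1 CPM. Plasma cells differed from these. Their marker level was 7244 and 14267 CPM, and cells without a marker UMI held 1 Plaur UMI in 25 WT-labelled cells and 0 in 15 KO-labelled cells.

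By size of the ratio, Plaur was the member that passed 2-fold in most classes. It was at least 2-fold lower in the KO-labelled library in interstitial macrophages (log2 ratio -2.23, interval -2.38 to -2.08), where 2.5% of 10823 genes were, and in alveolar macrophages (log2 ratio -1.81), where 1.82% were. In neutrophils its log2 ratio was -0.72 (interval -0.76 to -0.68) and in classical monocytes -0.99 (interval -1.05 to -0.92), short of 2-fold. It was at least 2-fold higher in CD4 T cells (log2 ratio 4.59, interval 4.10 to 5.14), where 1.2% of 9175 genes were, and in NK cells (4.65), where 1.62% were. The same held for gamma-delta T cells (4.58 from 3 WT-labelled UMIs, interval 2.94 to 6.91, background 2.75%), CD8 T cells (2.83, background 2.58%) and group 2 innate lymphoid cells (2.41, background 6.27%). It held for cDC1 (2.11, background 2.08%) and nonclassical monocytes (1.06, background 4.35%) as well. In each of these classes Plaur was the 1 member that passed, out of 2 to 4 with at least 20 UMIs. B cells stood at 0.61 (interval 0.48 to 0.75).

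Some of these ratios moved with the way cells were kept. With doublet calls kept, the log2 ratio of NK cells was 2.32, of CD8 T cells 1.20, of cDC1 1.14 and of group 2 innate lymphoid cells 0.84, or 0.83 with thinned cells. With the 5 cells richest in Plaur UMIs left out of each library, CD8 T cells stood at 3.56 and cDC1 at 3.44. In CD4 T cells it was 5.34 by that measure and 5.63 in cells without neutrophil marker UMIs. The small differences in dendritic and plasma cells were not stable. In cDC2 the log2 ratio of -0.37 became 0.34 with doublet calls kept and -1.02 with thinned cells, and in plasma cells -0.39 became 0.72 with thinned cells. In CCR7 dendritic cells it was -0.62, or -2.53 with thinned cells. In plasmacytoid dendritic cells 0.11 became -0.44 with doublet calls kept and 0.71 with thinned cells. Cells were clustered and named anew with doublet calls kept, so classes changed members too. The plasmacytoid cluster then held 135 WT-labelled and 268 KO-labelled cells, against 75 and 92. In it 6 classical monocyte markers were raised beside 4 plasmacytoid ones. The cDC2 cluster held 285 and 384 cells, against 410 and 425, and an unnamed cluster 108 and 66. The part of this regrouping in the ratios was not tested.

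**Figure D3:**
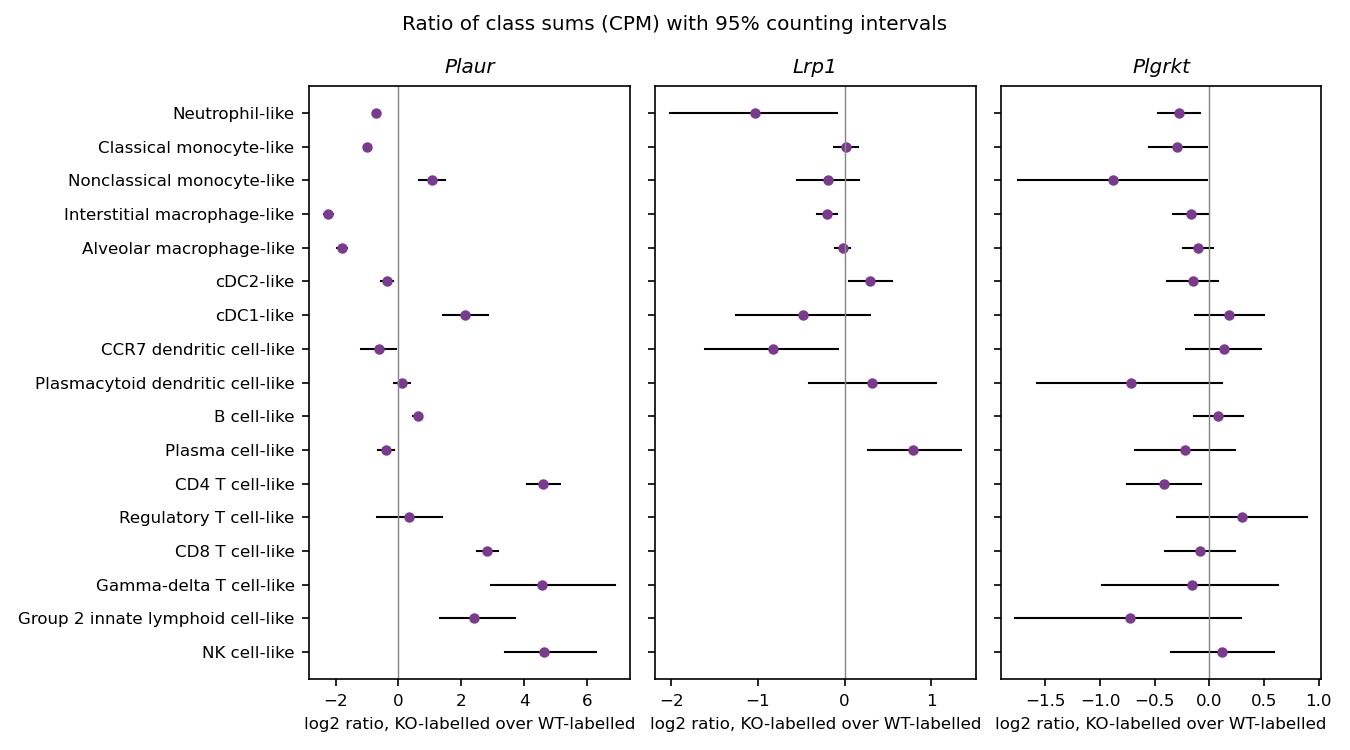
Log2 of KO-labelled CPM divided by WT-labelled CPM for Plaur, Lrp1 and Plgrkt by cell class, with 95% counting intervals, for classes with at least 20 UMIs of the gene (the 3 horizontal axes differ). Plaur runs from -2.23 in interstitial macrophages to 4.65 in NK cells, while the ratios of Plgrkt lie between -0.88 and 0.30.

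Plau (chromosome 14 at 20836662 to 20843388), which encodes urokinase, was counted in few classes. WT-labelled interstitial macrophages were at 63.2 CPM (402 UMIs, interval 57.2 to 69.7) and KO-labelled ones at 61.2 CPM (267 UMIs, interval 54.1 to 69.0). They held 70.9% and 65.4% of all Plau UMIs. The next class was cDC2, dendritic cells that present antigen to helper T cells, at 42.1 and 29.9 CPM, with a log2 ratio between -0.90 and -0.09 by its interval. Alveolar macrophages were at 4.25 and 4.55 CPM and classical monocytes at 1.59 and 1.22 CPM. In neutrophils, which had the most receptor RNA, 3 WT-labelled and 6 KO-labelled Plau UMIs were counted. No UMI was found in 9 WT-labelled and 8 KO-labelled classes.

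The log2 ratio of Plau in interstitial macrophages was -0.05 (interval -0.28 to 0.18), so a difference between the libraries was not detectable there at this depth. Both clusters of the class held it. The Gpnmb and Trem2 cluster was at 67.3 and 59.0 CPM and the Ccl8 and C1qa cluster at 50.3 and 63.6 CPM. After thinning to 1000 UMIs, 6.55% of WT-labelled and 6.84% of KO-labelled interstitial macrophages had a Plau UMI, or 29.0% and 24.6% unthinned. No B cell had one after thinning in either library, which allows shares of up to 0.202% and 0.271% (median 2338.5 and 2051.5 UMIs).

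**Figure D4:**
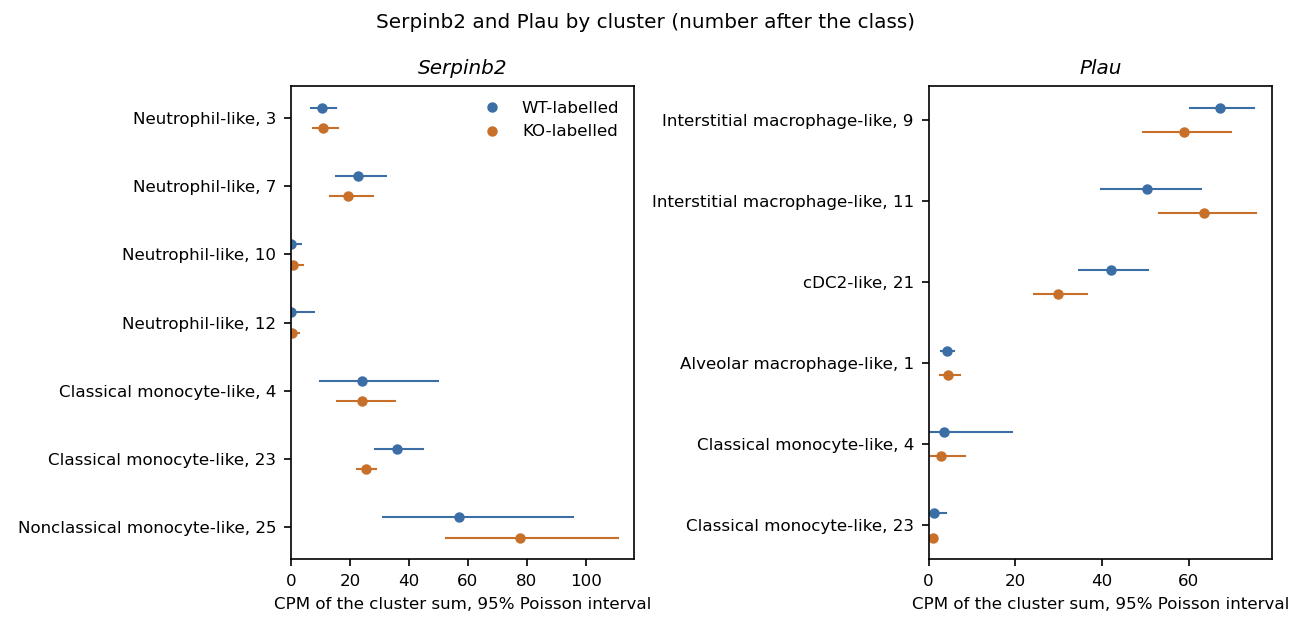
CPM of Serpinb2 in neutrophil and monocyte clusters (left) and of Plau in macrophage, cDC2 and monocyte clusters (right), with 95% Poisson intervals, for clusters with at least 30 cells in each library. Serpinb2 is near 0 in neutrophil clusters 10 and 12, and Plau is above 25 CPM in both interstitial macrophage clusters and cDC2.

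Plat (chromosome 8 at 22757722 to 22782848), which encodes tissue-type plasminogen activator, had 38 UMIs in WT-labelled and 31 in KO-labelled kept cells. Of these 69 UMIs, 24 (34.8%) lay in the 42 fibroblast-marker barcodes. Among leukocytes, CCR7 dendritic cells, a migratory state, had 4 WT-labelled UMIs (3.80 CPM) and 11 KO-labelled ones (14.3 CPM). CD8 T cells had 11 UMIs in 11 WT-labelled cells and 0 in the KO-labelled library, where a count of 0 allows up to 1.75 CPM by 3 counts.

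Serpine2 (chromosome 1 at 79794317 to 79858665) encodes protease nexin, a surface-bound inhibitor of thrombin and plasminogen activators. It had 67 and 48 UMIs, of which 47 (40.9%) lay in fibroblast-marker barcodes. There it was found in 12 of 23 WT-labelled and 8 of 19 KO-labelled barcodes, at 182 and 122 CPM. Group 2 innate lymphoid cells held 5 and 2 UMIs and NK cells 8 and 4, and the intervals of both ratios included 0. Classical monocytes held 5 and 1 (interval of the log2 ratio -9.97 to -1.24).

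Mrc2 (chromosome 11 at 105292093 to 105351146) encodes a collagen uptake receptor that associates with uPAR. It had 57 and 43 UMIs, of which 39 (39%) lay in fibroblast-marker barcodes, at 145 and 108 CPM. Gamma-delta T cells had 3 and 4 UMIs and neutrophils 10 and 9.

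The fibroblast-marker barcodes had been grouped mostly with cDC2, which held 18 of the 23 and 17 of the 19. Left in that class, they raised its Plat from 0 to 5.25 CPM in the WT-labelled library and from 1.25 to 3.89 CPM in the KO-labelled library. Serpine2 in cDC2 then stood at 9.81 and 5.69 CPM, and Mrc2 at 8.41 and 5.39 CPM. Of the 47 Serpine2 UMIs in the cDC2 cluster 46 came from these barcodes, as did 24 of 28 Plat UMIs and 39 of 42 Mrc2 UMIs. The barcodes also held Lrp1 at 648 and 365 CPM, and those in the cDC2 cluster had a median of 6422 and 7848 UMIs each. Whether each is 1 cell or a leukocyte joined with fibroblast RNA was not tested.

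Serpinb2 (chromosome 1 at 107500892 to 107525600) encodes a plasminogen activator inhibitor that stays largely within cells. Nonclassical monocytes were highest at 56.9 CPM (14 UMIs) and 77.7 CPM (30 UMIs), and classical monocytes followed at 34.6 CPM (87 UMIs) and 25.4 CPM (270 UMIs). In the WT-labelled library the intervals of these classes overlapped (31.1 to 95.5 and 27.7 to 42.7 CPM). In the KO-labelled library 1 nonclassical monocyte held 12 of the 30 UMIs. Neutrophils were at 10.4 and 8.14 CPM, and here only some clusters held it. Cluster 3, led by Egln3, Cass4 and Il1f9, was at 10.4 and 10.99 CPM and cluster 7, led by F3 and Egln3, at 22.7 and 19.4 CPM. Clusters 10 and 12 had 0 UMIs in the WT-labelled library, which allows up to 2.77 and 6.40 CPM by 3 counts, and 1 UMI each in the KO-labelled library. In the WT-labelled library Serpinb2 was found in 13 of 77 nonclassical monocytes, 39 of 252 classical monocytes and 39 of 2269 neutrophils. The KO-labelled counts were 15 of 135 (11.1%), 141 of 861 (16.4%) and 34 of 3314, so by share classical monocytes stood above nonclassical ones there.

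The Serpinb2 ratio of classical monocytes was -0.45 on the log2 scale (interval -0.80 to -0.08). It rested on few cells, since it became 0.03 once the 5 cells richest in Serpinb2 were left out of each library and 0.33 with thinned cells. In cDC2 Serpinb2 passed 2-fold lower, as did 2.19% of 10080 genes, with 29 UMIs in 6 WT-labelled and 4 UMIs in 3 KO-labelled cells. A single WT-labelled cell held 21 of those UMIs.

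Plgrkt (chromosome 19 at 29348599 to 29367292) encodes a transmembrane plasminogen receptor that ends in a lysine. It was counted in every class, with WT-labelled levels from 59.6 to 173 CPM and KO-labelled levels from 37.1 to 168 CPM. Alveolar macrophages (173 and 162 CPM) and CCR7 dendritic cells (154 and 168 CPM) were highest. Within neutrophils the Retnlg cluster 12 was low, at 29.9 and 29.8 CPM, against 93.7 and 100.8 CPM in cluster 7. Among B cells, the cluster led by Agbl1 and Vpreb3 (cluster 5) was at 163 and 156 CPM and the Fcer2a cluster 0 at 74.3 and 75.7 CPM. The intervals of each of these pairs of clusters did not overlap in either library. After thinning to 1000 UMIs 7.85% of WT-labelled and 4.94% of KO-labelled CD8 T cells, the lowest lymphoid class of its size, had a Plgrkt UMI (median 3493 and 3070 UMIs). The same was true of 14.2% and 12.5% of alveolar macrophages.

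Over all kept cells the log2 ratio of Plgrkt was -0.41 (interval -0.48 to -0.35), and it lay nearer 0 in most classes. It was -0.10 in alveolar macrophages, -0.17 in interstitial macrophages and -0.28 in neutrophils, where it became -0.04 with each cluster weighted alike. In CD4 T cells it was -0.41 (interval -0.75 to -0.08), or -0.06 with doublet calls kept, where the class was the Igfbp4 and Lef1 cluster. In 12 of 17 classes the interval included 0, and no class passed 2-fold.

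Lrp1 (chromosome 10 at 127538157 to 127621148) encodes the endocytic receptor that removes activator and inhibitor complexes. Nonclassical monocytes were at 463 and 407 CPM and alveolar macrophages at 404 and 399 CPM, with overlapping intervals. Interstitial macrophages were at 250.1 and 217 CPM and classical monocytes at 214 and 216 CPM. Below them came cDC2 at 86.3 and 106 CPM, CCR7 dendritic cells at 50.3 and 28.5 CPM and cDC1 at 17.5 and 12.6 CPM. T, NK and B cells and neutrophils had almost none, with 25 UMIs in 2269 WT-labelled and 17 in 3314 KO-labelled neutrophils. After thinning, 32.4% and 33.7% of alveolar macrophages had an Lrp1 UMI. No WT-labelled NK cell and no KO-labelled B cell did, which allows up to 0.949% and 0.271%.

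In alveolar macrophages the log2 ratio of Lrp1 was -0.02 (interval -0.11 to 0.07) and in classical monocytes 0.01 (interval -0.12 to 0.15). In interstitial macrophages it was -0.21 (interval -0.32 to -0.09), and the clusters differed in direction. The Gpnmb and Trem2 cluster went from 299 to 271 CPM and the Ccl8 and C1qa cluster from 95.5 to 157 CPM (log2 ratio 0.72, interval 0.43 to 1.01). With each cluster weighted alike the class stood at 0.12. Of the WT-labelled cells of this class 535 lay in the former and 252 in the latter cluster, of the KO-labelled cells 298 and 388.

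Lrp1 was the member that passed 2-fold lower in KO-labelled neutrophils, as did 3.6% of 9161 genes, at 4.66 and 2.27 CPM. The summed level of 22 macrophage markers there was 299 and 137 CPM, and it was 976 CPM in the 21 WT-labelled neutrophils with an Lrp1 UMI against 282 CPM in the others. In plasma cells, where Lrp1 was at 34.9 and 60.5 CPM, the cells with an Lrp1 UMI had 2351 and 1803 CPM of those markers and the others 45.7 and 79.2 CPM. In CCR7 dendritic cells, where Lrp1 and Plaur were lower in the KO-labelled library, WT-labelled cells had 2434 CPM of the markers and KO-labelled cells 381 CPM. With an Lrp1 UMI, the WT-labelled cells had 6061 CPM and without one 1305 CPM, and KO-labelled cells 374 and 382 CPM. The part of macrophage RNA in these values was not tested.

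Co-detection was counted within a class, library and depth, since cells of deeper classes hold more of every gene. With each cell thinned to 1000 UMIs, 7 of 779 WT-labelled interstitial macrophages had both Plaur and Plau UMIs (0.899%), and 2 of 673 KO-labelled ones did. Lrp1 was present as well in 3 and 2 of those cells. Among the 51 WT-labelled interstitial macrophages with Plau, 13.7% had Plaur (interval 5.70% to 26.3%), against 29.8% (interval 26.5% to 33.3%) of those without Plau. At 2000 UMIs per cell the shares were 42.2% and 45.0%, so the lower share was not seen at the greater depth. In the KO-labelled library they were 4.35% and 7.66% with overlapping intervals.

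The receptor and the clearance receptor were found together in some macrophages and monocytes. The share with Lrp1 was compared between cells with and without Plaur. In WT-labelled interstitial macrophages with Plaur, 30.8% had Lrp1 (interval 24.8% to 37.3%), against 18.2% (interval 15.1% to 21.7%) of those without. Within the Gpnmb and Trem2 cluster the shares were 35.2% and 24.3%, and at 2000 UMIs they were 39.4% and 44.8%. Within that cluster the higher share with Plaur was therefore not seen at the greater depth. In alveolar macrophages the shares with and without Plaur were 32.6% and 32.4%, and in classical monocytes 18.9% and 19.4%. In the KO-labelled library they were 26.0% and 18.1% in interstitial macrophages, 32.1% and 33.9% in alveolar macrophages and 16.1% and 21.8% in classical monocytes, with overlapping intervals. In nonclassical monocytes 42.9% of cells with Plaur had Lrp1 in each library, against 31.1% of WT-labelled and 29.6% of KO-labelled cells without, from 14 and 63 cells with Plaur. Outside WT-labelled interstitial macrophages the intervals of cells with and without Plaur overlapped in each of these classes, so a difference was not detectable at this number of cells.

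**Figure D5:**
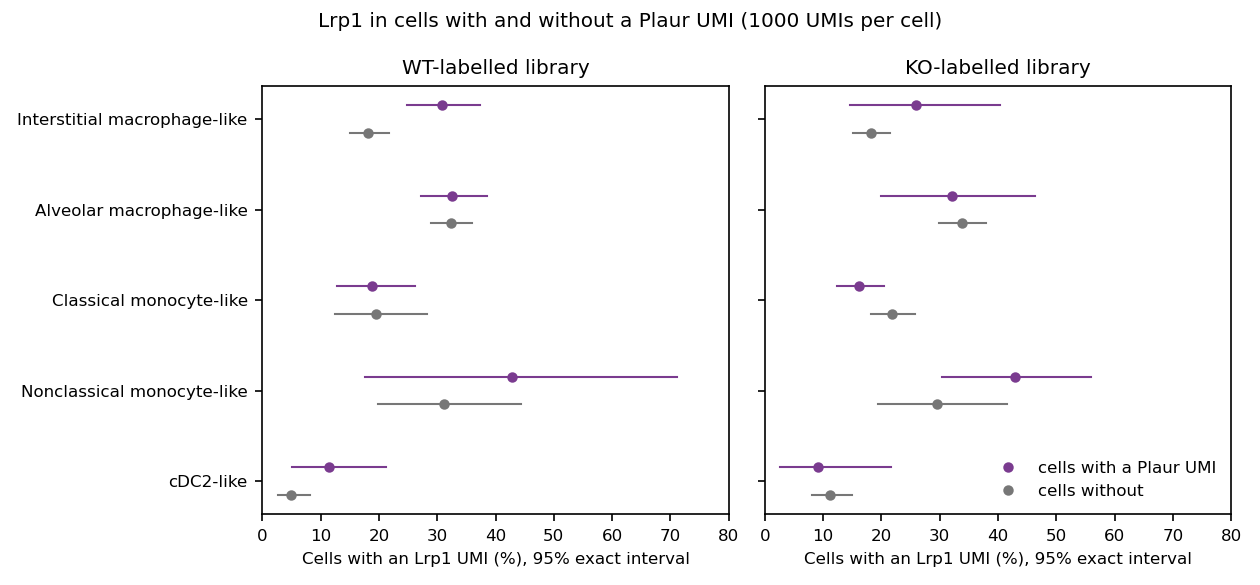
Percentage of cells with an Lrp1 UMI among cells with and among cells without a Plaur UMI, after thinning to 1000 UMIs, by class and library, with 95% exact intervals. The intervals of the pair lie apart only for WT-labelled interstitial macrophages, at 30.8% and 18.2%.

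In neutrophils Plaur stood mostly alone. At 1000 UMIs, 68.4% of WT-labelled and 62.5% of KO-labelled neutrophils had exactly 1 of the 8 genes, and 6.48% and 3.76% had 2 or more. Plgrkt was in 6.99% of WT-labelled neutrophils with Plaur and 6.97% of those without, and in 5.34% and 8.88% in the KO-labelled library, where the intervals did not overlap. Of 22 WT-labelled neutrophils with Serpinb2, 19 also had Plaur (86.4%, against 72.7% of the others). In the KO-labelled library 9 of 15 did. Interstitial and alveolar macrophages had 2 or more of the genes in 15.1% and 14.7% of WT-labelled cells, and in 4.90% and 7.97% of KO-labelled cells.

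Hprt, a purine salvage enzyme outside the members and the pathway list, was higher in the KO-labelled library in many classes. It was at 36.5 and 688 CPM in neutrophils, 85.9 and 473 CPM in classical monocytes and 91.9 and 236 CPM in CD4 T cells. In regulatory T cells (117 and 137 CPM) and CCR7 dendritic cells (70.3 and 58.3 CPM) the interval of its log2 ratio included 0. Its co-detection with Plaur was counted as well. In KO-labelled CD4 T cells, 26.7% of cells with Plaur and 18.9% of those without had Hprt, with overlapping intervals. In WT-labelled neutrophils the shares were 3.05% and 4.93%, and in KO-labelled neutrophils 50.3% (interval 48.1% to 52.5%) and 42.4% (interval 39.6% to 45.3%).

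The genes most like each member over the 17 classes, by Pearson r of log2(CPM + 1) averaged over both libraries among 8936 other genes, were read as a description, since class sums of 1 library share depth and free RNA. For Plaur they were Ets2 (r = 0.92), Ppard, Tlr6, Oscp1 and Tpd52. Ets2, a transcription factor, was at 1053 and 1033 CPM in neutrophils and 530.0 and 390 CPM in classical monocytes. With Spearman's rho 2 of these 5 genes stayed among the top 5, and 0 did in the KO-labelled library alone. For Plau they were the macrophage elastase Mmp12 (r = 0.96), the collagenase Mmp13, the endothelin Edn1, Fcrls and the complement gene C1qc. Mmp12 was at 194 and 448 CPM in interstitial macrophages and 134 and 63.0 CPM in cDC2, the 2 classes with the most Plau.

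For Lrp1 the list held Nupr1 (r = 0.97), Guca1a, Cd302, Pid1 and the Fc receptor gene Fcgr1, and for Serpinb2 it held Ifitm6 (r = 0.90), Apoc2, Treml4, Skint3 and Scnn1a. For Plgrkt the best matches, Ift43, Epb41l2, Sbf2, Ric1 and Tmem168, reached r = 0.80 or less. Across the same 17 classes the members' own levels were compared as well, with r for the WT-labelled and then the KO-labelled library. Plaur went with Serpinb2 at 0.57 and 0.65 and Lrp1 with Plau at 0.53 and 0.60, while Plaur with Lrp1 was 0.60 and then -0.01, and Plaur with Plgrkt -0.04 and then -0.71. None of the 5 most alike genes stayed among the top 5 under Spearman's rho for Plau, Serpinb2 or Lrp1.

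Other genes of the pathway came from a list of 49, of which 42 had at least 20 UMIs over both libraries. Over all kept cells, 3 of them were at least 2-fold higher in the KO-labelled library (2.65% of all genes were) and 0 lower (3.17% were). The 3 were the collagenase Mmp8, the fibrin crosslinking factor F13a1 and the phospholipase Gpld1, which releases lipid-anchored proteins. Mmp8 was at 59.7 and 154 CPM over all kept cells. Within neutrophils, which made up 26.1% of WT-labelled and 34.6% of KO-labelled cells, it was at 310 and 482 CPM. F13a1 was at 70.2 and 274 CPM over all kept cells, and at 821 and 1039 CPM within classical monocytes, which made up more of the KO-labelled cells (861 of 9584, against 252 of 8684). Within neutrophils 2 of 32 passed higher (F13a1 and Gpld1, against 1.65% of all genes) and 0 lower (against 3.6%). Within alveolar macrophages 3 of 32 passed higher (Mmp9, Mmp8 and F13a1, against 1.33%) and 0 lower (against 1.82%). F13a1, a marker of classical monocytes, passed higher in CD8 T cells and plasma cells as well. The part of monocyte or neutrophil RNA in these calls was not tested. Within interstitial macrophages 2 of 34 passed higher (Mmp12 and Thbd, against 1.76%) and 0 lower (against 2.5%). The classes of dendritic cells differed in direction. In CCR7 dendritic cells 0 of 22 passed higher (1.91% of all genes did) and 5 lower (Itgam, Itgb2, Ctsb, Ctsl and Mmp12, against 6.08%). The summed macrophage markers of that class were at 2434 and 381 CPM, and their part in these calls was not tested. In cDC2 0 of 32 passed higher (1.95% of all genes did) and 3 lower (Mmp9, Mmp12 and F3, against 2.19%). In cDC1 2 of 23 passed higher (Itga3 and Mmp9, against 2.08%) and 1 lower (Ctsl, against 1.81%). Mmp9 is 1 of the 9 neutrophil markers, whose sum in cDC1 was 312 and 648 CPM. The part of neutrophil RNA in the Mmp9 calls of cDC1 and cDC2 was not tested. In plasmacytoid dendritic cells 2 of 23 passed higher (Mmp14 and F10, against 2.71%) and 1 lower (Itgav, against 2.79%).

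By role, plasmin and its inhibitors were scarce, with 2 of 4 genes past 20 UMIs and no class at 10 CPM for Serpinf2 or Cpb2. Among other inhibitors, Serpinb6a was at 54.9 and 32.7 CPM over all kept cells and highest in alveolar macrophages (146 and 131 CPM), and Serpinb8 was at 5.32 and 10.5 CPM. The plasminogen receptors S100a10 and Anxa2, which form a complex, were above 10 CPM in every class. S100a10 was highest in regulatory T cells (1842 and 2270 CPM). The integrin chains Itgam and Itgb2, partners of uPAR at the surface, were at 508 and 537 CPM in neutrophils for Itgam and at 594 and 707 CPM in nonclassical monocytes for Itgb2, the highest class of each. Of the clearance genes, the sorting receptor Sorl1 was highest in neutrophils (1483 and 1539 CPM), where Lrp1 was at 4.66 and 2.27 CPM, and Sort1 in alveolar macrophages (253 and 227 CPM). Of the proteases, the cathepsins Ctsb and Ctsl were highest in interstitial macrophages, at 2651 and 2599 CPM and at 439 and 424 CPM. Mmp9 was highest in neutrophils (1081 and 1208 CPM).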

How the data were processed

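Gene UMI counts of 2 RNA libraries, 1 per genotype, were used as deposited. Per the file headers, the authors made these counts in Cell Ranger 7.0.0 (the reads are droplet 3′ reads, per the labels' protocols), and the submitters' processing notes name Cell Ranger 7.1.0 and 7.0.0 with build mm10. Barcodes had already been called as cells, and 5 antibody tags in the same tables were not used.

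Barcodes stayed in with 200 genes or more and no more than 10% mitochondrial UMIs (80 WT-labelled and 61 KO-labelled barcodes were below this filter). Scrublet calls then removed 260 and 457 doublets. The remaining cells were clustered together with scanpy 1.11.5 (3000 variable genes, 30 components, 15 neighbours, Leiden resolution 1), which gave 27 clusters. A cluster was named where at least 3 markers of a type were raised in it. Where several types passed, the one with the highest mean log2 fold of its markers gave the name. The cDC2 cluster had 4 raised markers of cDC2 and 4 of CCR7 dendritic cells. The members, the marker lists and the pathway list were chosen with earlier results of these data known, and 1 gene of the pathway list is not reported here. The rule that set fibroblast-marker barcodes aside was chosen after seeing the data.

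UMIs were summed per class and library. CPM carries an exact Poisson interval, the log2 ratio an exact binomial interval conditioned on the sum, and shares of cells a Clopper-Pearson interval, all at 95%. A group at 0 was set to 3 counts for the 2-fold rule, which was applied to genes with at least 20 UMIs. No p-value was computed, because each genotype is 1 library and cells of a library are not replicates. In counts simulated on the neutrophil sums of 9127 genes, 95.9% of intervals held the true ratio. For genes with a true log2 ratio of size 1, 0 lay outside in 89.5%, and for size 2 in 100%. These counts were drawn as Poisson sums, the model that the intervals assume, so the calculation alone was checked. The simulation held no cells and could not show how the intervals behave where 1 cell holds many UMIs of a gene. Genes named in the text were the 8 members, the 5 most alike for each member with at least 500 UMIs and at most 3 per role of the pathway list with the most UMIs, plus any past 2-fold where a count was 5 or less, named after their values were seen. Hprt was added outside this rule. Scaling factors of edgeR 4.0.16 (TMM) and DESeq2 1.42.0 (size factors) were tried as alternatives, beside those listed in the closing section. Locations and promoters come from RefSeq tables of GRCm38.p6, the assembly that mm10 names, and no genome sequence was read by coordinate.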

Additional observations from a re-analysis of the deposited data

Results flagged for a closer look

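Plaur and Lrp1 had log2 ratios (KO-labelled over WT-labelled) on both sides of 0 in different classes, with intervals of counting error that left out 0. The differences between classes were not tested, since each genotype is 1 library.

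For Plaur the ratio lay above 0 in 8 classes. It was 4.65 in NK cells, 4.59 in CD4 T cells, 4.58 in gamma-delta T cells, 2.83 in CD8 T cells, 2.41 in group 2 innate lymphoid cells, 2.11 in cDC1, 1.06 in nonclassical monocytes and 0.61 in B cells. It lay below 0 in 7 classes, at -2.23 in interstitial macrophages, -1.81 in alveolar macrophages, -0.99 in classical monocytes, -0.72 in neutrophils, -0.62 in CCR7 dendritic cells, -0.39 in plasma cells and -0.37 in cDC2. For Lrp1 it was 0.80 in plasma cells and 0.30 in cDC2, and -0.21 in interstitial macrophages, -0.82 in CCR7 dendritic cells and -1.04 in neutrophils. In CCR7 dendritic cells WT-labelled cells had 2434 CPM of summed macrophage markers and KO-labelled cells 381 CPM. The Lrp1 ratio of cDC2 was 0.71 with doublet calls kept and 0.60 with thinned cells, and 0.04 with the fibroblast-marker barcodes left in the class. The part of neutrophil and macrophage RNA in the ratios of classes other than neutrophils and macrophages was not tested beyond the values given for cells without those markers.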

How the results depend on the processing

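Of 592 values recomputed for 95 results, 470 stayed within the interval of the main value, 117 moved and 5 changed the sign of a ratio whose interval had left out 0. These were Plaur in plasma cells (-0.39 to 0.72) and Serpinb2 in classical monocytes (-0.45 to 0.33) with thinned cells, Plaur in cDC2 (-0.37 to 0.34) with doublet calls kept, Lrp1 in interstitial macrophages (-0.21 to 0.12) with clusters weighted alike, and Serpinb2 in classical monocytes (0.029) without its 5 richest cells per library. The Plaur log2 ratio over all kept cells moved from -0.21 to -0.12 with TMM and -0.11 with DESeq2 size factors, and in neutrophils from -0.72 to -0.66 with TMM, with DESeq2 size factors or with clusters weighted alike. In interstitial macrophages it was -2.04 with doublet calls kept and -1.88 with clusters weighted alike, and in CD4 T cells 5.34 without the 5 richest cells and 5.63 without neutrophil marker UMIs. Plaur shares of CD4 T cells were 2.72% and 44.7% at 2000 UMIs and 3.71% and 51.3% unthinned, with 40.5% of KO-labelled cells when doublet calls were kept. Keeping doublet calls meant clustering and naming cells anew, so classes changed members as well. The CD4 T cells were then the Igfbp4 and Lef1 cluster (306 WT-labelled and 300 KO-labelled cells). A cluster led by Tnfrsf4, Foxp3 and Tnfsf8 (530 and 456 cells) was named regulatory T cells. Lrp1 was in 74.1% of WT-labelled and 73.0% of KO-labelled unthinned interstitial macrophages with Plaur, against 65.7% and 56.7% of all cells of the class. For these values the cause was not tested, except that deeper cells hold more UMIs of every gene by construction. At the coarser clustering cDC2 had no cluster of its own and gave no value. No paired analysis was possible because each genotype is 1 library. Ratios with intervals around 0 also changed sign, among them Plaur in plasmacytoid dendritic cells (0.11 to -0.44, doublet calls kept) and in regulatory T cells (0.34 to -0.71, thinned). Counts of Plat, Serpine2 and Mrc2 stayed under 20 UMIs in each leukocyte class, which limits what their ratios show.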
